A study of Morus alba with 4 samples.

Results

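In mature mulberry leaf, RNA reached the level counted here as expressed for 256 of 1017 loci that the deposited tables list under a gene identifier alone, with no transcript name. These loci are written gene-LOC followed by a number, and are called gene-LOC rows here. A row was counted as expressed when its normalized value was at least 20 in at least 2 of the 4 libraries, so the 256 rows were chosen by their level, which is given below as a description. The full tables have 37553 rows, of which 27648 carry a RefSeq predicted-mRNA accession.

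The plants were Morus alba, genotype Dudia white, grown in pots of about 30 kg as bushes. Leaves came from 2 well-watered samples (watered below), kept at 100% of the soil's field capacity, and 2 drought-stressed samples, kept at 40% for 14 days, and total RNA was sequenced. Field capacity is the water a soil holds once it has drained. The series describes the 2 samples of each treatment as biological replicates. The numbers 1 and 2 follow the order of deposition and pair nothing.

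In a genome annotation a gene normally has 1 or more transcript models beneath it. A common kind of gene listed without one is a pseudogene, a copy of a gene that has lost an intact coding sequence. Pseudogenes can still be transcribed, and they resemble the gene they were copied from, so short reads are not always assigned to the right copy. The deposited files give no gene type, product, sequence or position, and no reference was used here. Whether any row below is a pseudogene, and what it encodes, was therefore not analysed, and the leaf identity of the samples was not checked against marker genes.

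Each value is the authors' normalized read count rounded to a whole number. From the spacing of the low values, 1 read was worth a value of 1.22 in watered library 1, 0.86 in watered library 2, 1.11 in drought library 1 and 0.84 in drought library 2. A value of 20 thus stood for 16.4 to 23.8 reads, with a counting error of 20.5% to 24.7%, and a value of 100 for 81.8 to 119.0 reads, with a counting error of 9.2% to 11.1%. These errors cover counting only. Values are not divided by length, so an order of rows by value is an order of reads and not of RNA molecules.

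Most gene-LOC rows were listed at 0 or at low values. In all 4 libraries 346 rows (34.0%) were listed at 0, and 415 more were above 0 in at least 1 library without reaching the level rule. The 256 expressed rows are 25.2% of the class. By the same rule 70.1% of predicted-mRNA rows, 36.3% of 2245 predicted non-coding rows, 87.2% of 6251 rows named by a transcript assembler (MSTRG identifiers) and 7.65% of 392 tRNA rows were expressed. Of the gene-LOC rows, 190 reached 20 in all 4 libraries, 33 in exactly 3 and 33 in exactly 2.

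The edge of the rule cuts through a continuous range of low values. Just inside it, 2 rows had a second highest value of 20. One had values of 15 and 27 in the watered and 19 and 20 in the drought pair, and the other had 20 and 7 against 7 and 25. Just outside it, 4 rows had a second highest value of 19, with the 4 libraries, watered pair first, at 18, 9, 19 and 25 in one, at 22, 15, 7 and 19 in another, at 13, 19, 11 and 26 in another and at 6, 9, 24 and 19 in the last. The treatments overlap in 4 of these 6 rows, and in the first and the last of the 4 outside both drought values are above both watered ones. Through the watered libraries alone 12 rows met the rule, and through the drought libraries alone 2 did.

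**Figure D1:**
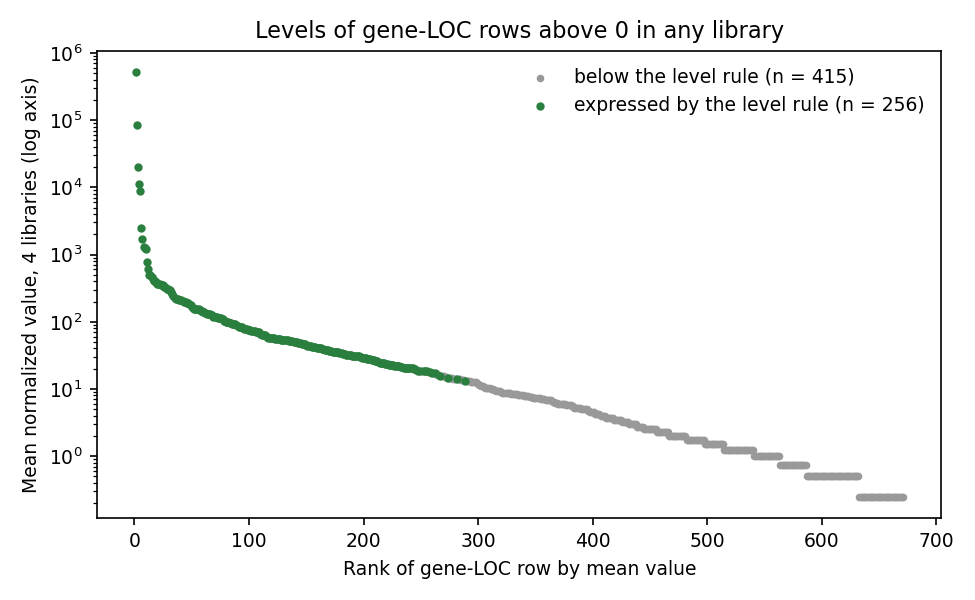
Mean normalized value over the 4 libraries (log axis) of each gene-LOC row above 0, ordered by rank; green points are the 256 expressed rows and grey points the 415 rows below the level rule. A few rows lie far above the rest, and the expressed rows pass into the others without a gap.

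Expressed gene-LOC rows had lower values than expressed predicted mRNAs. Their mean over the 4 libraries had a median of 54.1, with 31.0 and 129.3 at the quartiles. For the 19380 expressed predicted-mRNA rows the median was 137.0, with quartiles of 63.0 and 291.5. A mean of at least 100 was reached by 31.2% of the gene-LOC rows and 60.9% of the predicted mRNAs. At the top the order turned: 5 gene-LOC rows (1.95%) had means of at least 5000, against 0.196% of predicted mRNAs. Lengths were not used, so these shares compare reads per row.

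The 5 most abundant rows held 96.1% and 95.6% of the summed value of all expressed gene-LOC rows in the watered pair, and 96.2% and 91.3% in the drought pair. The most abundant, LOC21384241, alone held 79.1%, 78.1%, 77.5% and 68.5% in the same order. The other 251 rows together summed to 32179 and 30825 in the watered and 30591 and 33986 in the drought pair. The summed value of the expressed rows was therefore set by a handful of them: it was 825727 and 700654 in the watered pair, 796688 in the first drought library and 390238 in the second.

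The low sum of the expressed gene-LOC rows in drought library 2 came from the dominant rows. LOC21384241 had values of 652950 and 547339 in the watered pair, and 617113 and 267202 in the drought pair. Drought library 1 lay between the watered pair and drought library 2 below it, so the groups overlap (log2 fold change -0.56, standard error (SE) 0.36, adjusted p = 0.392, limma). Scaled to equal library totals the same fold had an adjusted p of 0.0129 (limma), and without drought library 2 the log2 fold change was 0.046. The library totals were 2910603473 to 4773539793, and all predicted-mRNA rows together summed to only 11174504 to 15683648 of them. Scaling to equal totals, here and below, is thus set by rows that are neither predicted mRNAs nor gene-LOC rows.

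LOC21402929 had 96971 and 82118 in the watered and 98767 and 62417 in the drought pair. LOC21407282 had 23297 and 20814 against 26181 and 10830. In both rows drought library 1 was the highest of the 4 and drought library 2 the lowest. Their log2 fold changes were -0.18 (SE 0.22, adjusted p = 0.666) and -0.39 (SE 0.34, adjusted p = 0.542), and without drought library 2 they were 0.15 and 0.25.

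LOC112092744, the fifth in level, had 12509 and 10927 in the watered pair, 9444 in the first drought library and 2526 in the second. Both drought values were below both watered ones, but the drought pair differed 3.74-fold, and the log2 fold change of -1.26 had an SE of 0.49 (adjusted p = 0.162). Without the first drought library that fold change was -2.21 and without the second -0.31. Scaled to equal library totals its adjusted p was 0.00736. A predicted non-coding row, rna-XR_002902731.1, has the same 4 values, so the 2 rows count as 1 observation.

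Other very abundant rows of the series also differed between the drought libraries. The ratio of drought library 1 to drought library 2 was 2.31 in LOC21384241, 1.58 in LOC21402929 and 2.42 in LOC21407282. Its median was 1.65 over the 153 rows of any class with means of at least 1000000, 1.35 over the 39 rows from 100000 to under 1000000 and 1.21 over the 114 rows from 10000 to under 100000. For rows with means of 200 to under 1000 it was 1.01. The part of this library difference in the values of the dominant gene-LOC rows was not tested.

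The fourth most abundant row was the exception among the 5, since it rose in drought. It had 7821 and 8631 in the watered and 14592 and 13277 in the drought pair. Its mean went from 8226 ± 573 to 13934.5 ± 930 (SD, n = 2 each), a log2 fold change of 0.76 (SE 0.12), or 1.69-fold (adjusted p = 0.00602, limma). The drought pair differed only 1.10-fold here, and the groups do not overlap. Scaled to equal library totals, the adjusted p was 0.253 at the same fold.

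**Figure D2:**
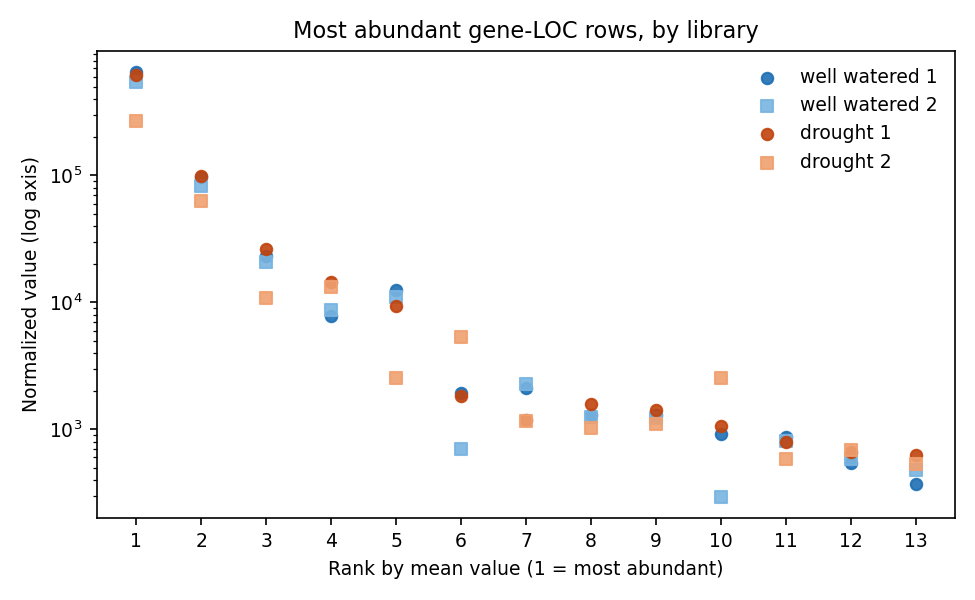
Normalized value (log axis) of the 13 most abundant gene-LOC rows in each of the 4 libraries, ordered by rank. Drought library 2 lies lowest in ranks 1, 2, 3 and 5, both drought libraries lie above both watered ones in rank 4, and ranks 6 and 10 differ widely within each treatment.

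The rows ranked 6 and 10 had like patterns over the 4 libraries and differed widely within each treatment. They were picked after their values were seen. LOC112091103 had 1941 and 696 in the watered pair and 1827 and 5372 in the drought pair. LOC112091109 had 924 and 295 against 1070 and 2533. In both, watered library 2 was lowest, drought library 2 was highest, and watered library 1 and drought library 1 lay close together. The treatments overlap in LOC112091103 and do not in LOC112091109. LOC112091103 was 2.10 and 2.36 times as high as LOC112091109 in the watered pair and 1.71 and 2.12 times as high in the drought pair.

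Among the 80 gene-LOC rows with means of at least 100, these 2 had the largest differences within the watered pair, 1.48 and 1.64 on the log2 scale, where the median absolute difference was 0.21. Neither passed the test for drought, with log2 fold changes of 1.43 (SE 0.55, adjusted p = 0.156) and 1.65 (SE 0.53, adjusted p = 0.0991). Of 4317 rows of any class with means of at least 500, only 1 other row, MSTRG.3916.4, differed within both pairs by as much and in the same directions. It had 986 and 352 against 1224 and 3092. The limits of this search were the 2 rows' own differences, so the count describes them and is no test.

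Below these, several rows were steady across all 4 libraries. The row ranked 9 had 1297 and 1217 in the watered and 1410 and 1100 in the drought pair, and the row ranked 14 had 505 and 497 against 457 and 532. In both, the drought values lie on either side of the watered pair. By the fitted change between treatments alone, 88 of the 256 rows (34.4%) were under 1.2-fold in either direction, against 48.5% of expressed predicted mRNAs. That count does not mean steady values. It includes rows that differ widely within a treatment, such as one with 15 and 25 in the watered and 9 and 42 in the drought pair.

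Drought changed 35 of the 256 rows at an adjusted p under 0.05: 10 were higher and 25 lower, which is 13.7% in all, 3.91% higher and 9.77% lower. Over all 28254 rows tested 9.81% were called, 4.62% higher and 5.19% lower, and over the expressed predicted mRNAs 9.61% were, 4.26% higher and 5.35% lower. The share of higher rows was thus near that of the whole table, and the share of lower rows was above it. The 25 lower rows include 7 that met the level rule through the watered libraries alone. The fit was limma on log2(value + 1) of all rows with at least 10 in at least 2 libraries, adjusted over all of them. The median log2 fold change was -0.01 for the gene-LOC rows and 6.2e-05 for all tested rows. The deposited values were already scaled to median ratios between libraries near 1, with median-ratio scaling factors of 0.999 to 1.001. A median near 0 over all tested rows therefore follows from the scaling, and a shift of all rows could not show. Relative to that scaling, falls in some gene-LOC rows stood beside no shift of their median. In leaf tissue of mixed cells, fewer cells of a type and less RNA per cell cannot be told apart. Before adjustment, 27 of the 256 gene-LOC rows were higher and 41 lower with p under 0.05 (limma), against 11.8% and 12.7% of all tested rows. The share of falls was nearer to that of all tested rows there than after adjustment.

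These counts rest on all 4 libraries. Without any 1 of them, 0 of the 35 calls passed (limma), with 40 to 65 of the 256 rows at an unadjusted p under 0.05. Scaled to equal library totals 7 rows were higher and 15 lower, and with no trend of the spread with level 3 and 11.

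Rows that met the level rule through 1 treatment alone differ between treatments by construction, and they hold 8 of the 35 calls. Of the 242 rows that reached 20 in both treatments, 9 were higher and 18 lower. Of the 190 rows at 20 or more in all 4 libraries, 8 were higher and 17 lower. No share of predicted mRNAs or of all tested rows was taken under either limit. These counts therefore do not show how the classes compare once rows chosen through 1 treatment are left out. The groups did not overlap in 127 rows, 50 higher and 77 lower in drought. That is 49.6%, against 53.1% of all tested rows.

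**Figure D3:**
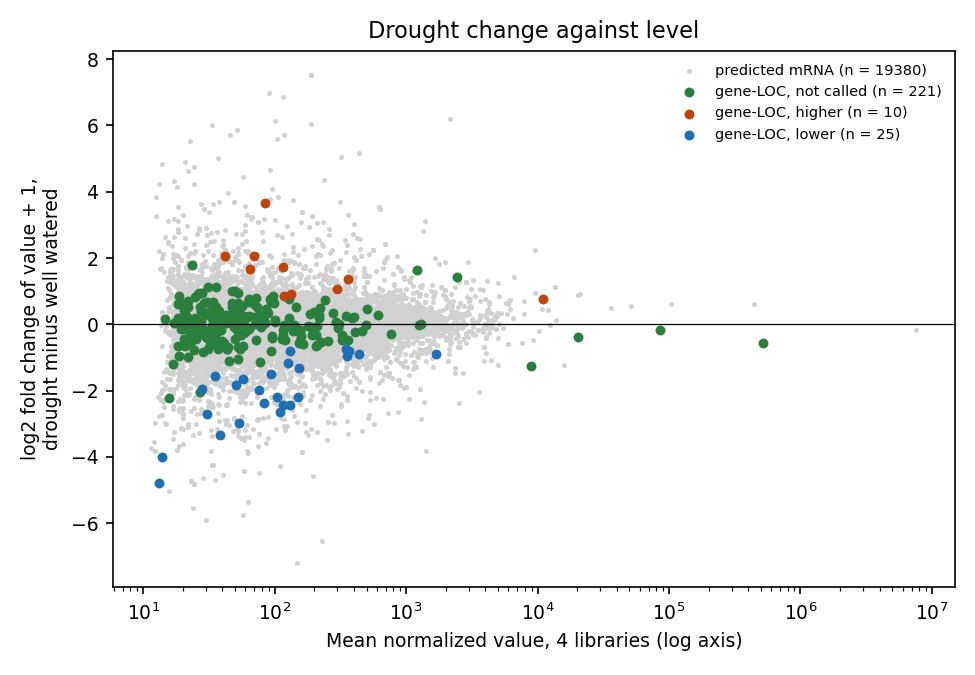
Log2 fold change of value + 1, drought minus well watered, against the mean value (log axis) for the 256 expressed gene-LOC rows, coloured by call, over the 19380 expressed predicted-mRNA rows in grey. Of the 25 lower rows 20 lie at means under 200, as do most of the 256 rows: the row ranked 42 by mean is at 205.0 and the row ranked 43 at 199.25.

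The largest rise was in LOC21384898, which met the level rule through the drought libraries alone. It had 18 and 7 in the watered pair and 137 and 174 in the drought pair. The log2 fold change was 3.66 with an SE of 0.44, or 12.6-fold (adjusted p = 0.00202, limma). Its lowest drought value is over 7 times its highest watered value. LOC21403516 had 21 and 32 against 110 and 115, a log2 fold change of 2.07 (SE 0.30, adjusted p = 0.0052).

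The other rises were of 1.69-fold to 4.18-fold. The next in size went from 20 and 12 to 61 and 76, and the one after it from 53 and 53 to 164 and 192, which is 1.72 on the log2 scale (SE 0.22). The watered pair was identical in the latter, and its drought values were both over 3 times as high. A row that started at 26 and 34 reached 78 and 122, and one at 216 and 180 reached 606 and 433. The smaller rises took rows from 233 and 158 to 391 and 417, from 104 and 81 to 173 and 174, and from 78 and 89 to 161 and 144. Each of these 10 rows had both drought libraries above both watered ones, and the treatments were likewise apart in all 25 lower rows. The calls were made on this same difference, so the separation comes largely with the call and is no added support. Over all tested rows the groups did not overlap in 53.1%.

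Of the lower rows, 2 ended at or next to 0 in drought. LOC112092048 had 29 and 24 in the watered pair and was listed at 0 in both drought libraries (adjusted p = 0.0182, limma). LOC112091457 had 22 and 32 against 0 and 2 (adjusted p = 0.0302, and 0.0585 with no trend in the spread). These are the 2 largest fitted falls, and no fold is given because the drought values are at or next to 0. Both rows met the level rule through the watered libraries alone.

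The other 23 falls had log2 fold changes from -3.35 to -0.74, 17 of them at least 2-fold and 9 at least 4-fold. The third largest went from 76 and 65 to 6 and 6, a change of -3.35 (SE 0.42, adjusted p = 0.00242), and the fourth from 90 and 103 to 10 and 13, a change of -2.97 (SE 0.34). A row with 55 and 52 in watered leaves had 9 and 6 in drought. All 3 rows met the level rule through the watered libraries alone, so their low drought values are in part a matter of how they were chosen.

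Several rows with values of 117 to 276 in watered leaves fell to values of 23 to 71. One went from 208 and 171 to 29 and 29, 6.32-fold (log2 fold change -2.66, SE 0.24, adjusted p = 0.000768). Another went from 209 and 186 to 34 and 37, and another from 224 and 217 to 44 and 36, which are changes of -2.44 on the log2 scale in each. Values of 163 and 117 went to 29 and 23 in 1 row, 207 and 137 to 30 and 43 in another, and 276 and 212 to 39 and 71 in a further one. The last of these has the same 4 values as an assembled row, MSTRG.6744.3, and is the only called gene-LOC row that shares its values with another row.

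The 5 falls in rows with means of at least 200 were all under 2-fold. The row ranked 7 in level went from 2102 and 2261 to 1184 and 1160, which is -0.89 on the log2 scale (SE 0.11), or 1.86-fold (adjusted p = 0.00266). One with 501 and 440 fell to 264 and 270, and one with 470 and 405 to 253 and 269, the smallest fall called (log2 fold change -0.74, SE 0.16, adjusted p = 0.0229). The drought libraries lay close to each other in these 3 rows. They lay further apart in the other two, which fell from 539 and 592 to 377 and 243 (adjusted p = 0.0356) and from 455 and 481 to 304 and 189 (adjusted p = 0.0341).

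**Figure D4:**
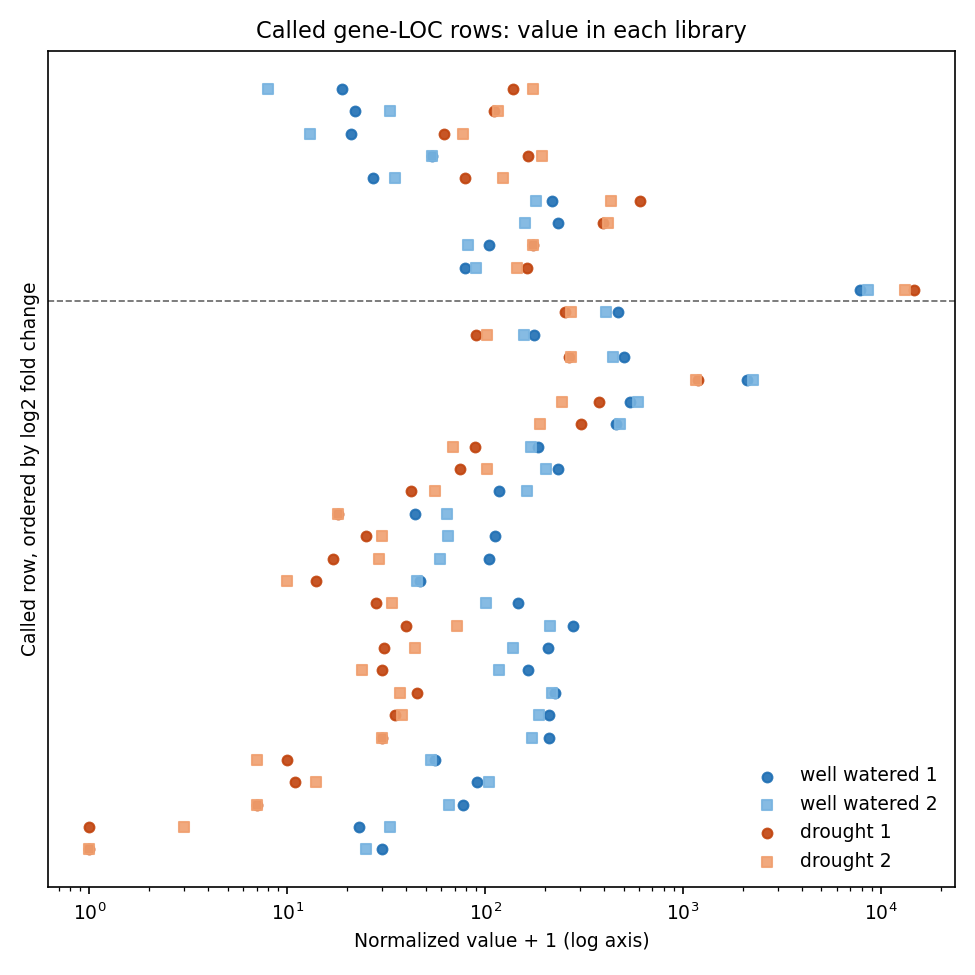
Value + 1 (log axis) of each of the 35 called gene-LOC rows in the 4 libraries, ordered by log2 fold change; rows above the dashed line were higher in drought (10) and rows below it lower (25). The bottom row is the one listed at 0 in both drought libraries, and the treatments separate by the most in the rows at the top and the bottom.

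Against predicted mRNAs of the same level, the share of gene-LOC rows called lower was larger in the bands from 50 to under 500. From 500 to under 2000 it stands for 1 of only 7 gene-LOC rows and from 2000 up for 0 of 6, too few to compare. The share called higher was larger in some bands and smaller in others. Rows of both classes were placed in bands by their mean over all 4 libraries. From 20 to under 50, 3.88% of 103 gene-LOC rows and 3.25% of 3235 predicted mRNAs were lower, but all 4 of these gene-LOC rows, and 82 of the 105 predicted mRNAs, met the level rule through the watered libraries alone, so nothing is read from this band. From 50 to under 100 the shares were 10% of 60 and 4.88% of 3972. They were 21.1% of 38 and 5.10% of 4607 from 100 to under 200, and 13.8% of 29 and 5.88% of 4827 from 200 to under 500. From 50 up these gene-LOC shares stand for 6, 8 and 4 rows. Of them 1 row, in the band from 50 to under 100, met the rule through the watered libraries alone, as did 22 of the 194 lower predicted mRNAs of that band.

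For rises the shares were 0.971% and 2.75% in the lowest band, 5.0% and 2.77% in the next, 7.89% and 3.10% from 100 to under 200, and 6.90% and 4.99% from 200 to under 500, with the gene-LOC rows first. Those gene-LOC shares stand for 1, 3, 3 and 2 rows, and 1 of the 3 from 50 to under 100 met the rule through the drought libraries alone. The 7 gene-LOC rows from 500 to under 2000 held 0 rises and 1 fall (limma), with 2 higher rows at an unadjusted p under 0.05. Of the 2148 predicted mRNAs of that band 8.8% were higher and 8.3% lower. The 6 gene-LOC rows from 2000 up held 1 rise and 0 falls, with 1 lower row at that p. Of the 228 predicted mRNAs there 17.5% were higher and 10.1% lower. With 7 and 6 gene-LOC rows, these 2 bands are too small to compare.

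Weighted to the level bands of the 243 gene-LOC rows with means of at least 20, predicted mRNAs were lower in 4.57% of rows and higher in 3.62%. The gene-LOC rows themselves were lower in 9.47% (23 rows) and higher in 4.12% (10 rows), and these include the 5 falls and 1 rise just described that met the rule through 1 treatment. With predicted mRNAs of identical values counted once, the weighted shares were 4.81% and 3.75%. The difference between the classes is a description and was not tested.

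**Figure D5:**
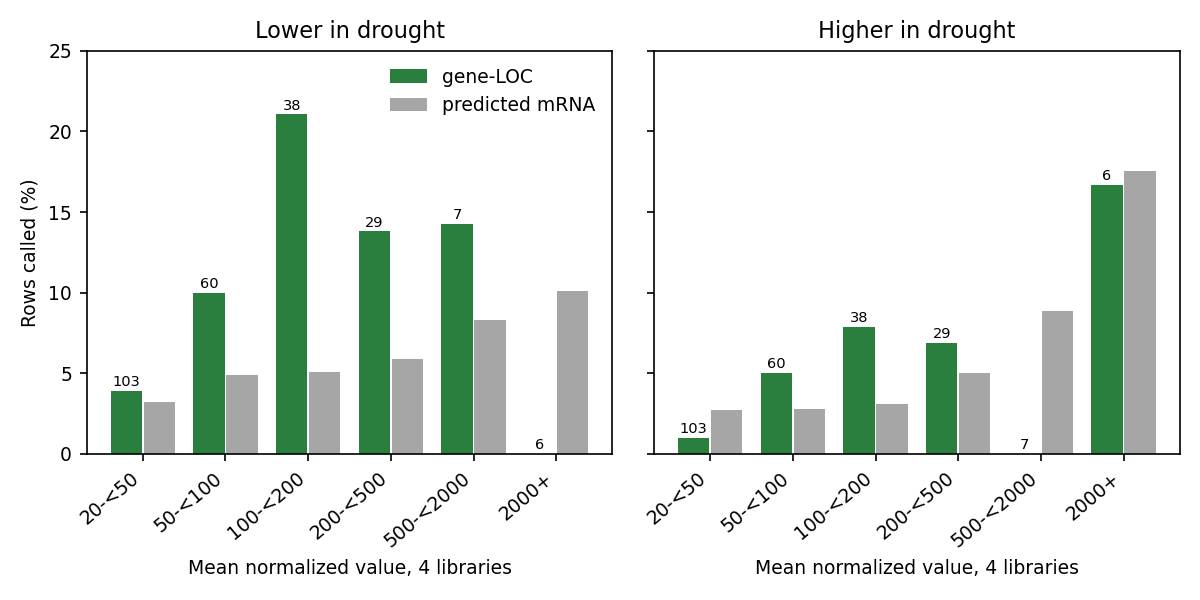
Share of rows called lower (left) and higher (right) in drought, in percent, for expressed gene-LOC rows (green, number of rows above the bar) and expressed predicted-mRNA rows (grey) in bands of mean value over the 4 libraries. The left panel shows the larger green bars from 50 to under 500, with 21.1% against 5.10% from 100 to under 200. From 500 to under 2000 the green bar stands for 1 of 7 rows and from 2000 up for 0 of 6, too few to compare.

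From means of 50 to under 500, gene-LOC rows also differed more within treatments than predicted mRNAs of the same level. From 50 to under 100 the median absolute log2 difference was 0.35 within the watered pair and 0.36 within the drought pair, against 0.27 and 0.33 for predicted mRNAs. From 100 to under 200 it was 0.23 and 0.32 against 0.20 and 0.23, and from 200 to under 500 it was 0.22 and 0.22 against 0.15 and 0.19. The 7 rows from 500 to under 2000 had 0.36 against 0.15 in the drought pair and 0.11 in the watered pair of either class. From 20 to under 50 it was 0.44 and 0.39 against 0.40 and 0.43, larger in the watered pair and smaller in the drought pair. The median absolute log2 fold change between treatments was 0.45 against 0.30 from 50 to under 100, 0.35 against 0.25 from 100 to under 200 and 0.36 against 0.22 from 200 to under 500. The part of the within-treatment spread in the larger changes was not tested.

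Expressed gene-LOC rows rarely shared their values with another row. Only 9 of 256 (3.52%) had the same 4 values as another row, 8 of them an assembled row and 1 a non-coding row, and 0 matched a predicted mRNA or another gene-LOC row. Of the expressed predicted mRNAs 39.0% had such a twin. Rows with identical values count as 1 observation, and rows whose values differ can still share part of their reads.

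The identifiers form 2 series, with numbers of 8 and of 9 digits. NCBI numbers its gene records in order of creation, so a higher number marks a later record. Numbers of 8 digits were carried by 658 gene-LOC rows, of which 191 (29.0%) were expressed, with a median level of 63.2. Numbers of 9 digits were carried by 359 rows, of which 65 (18.1%) were expressed, with a median level of 39.8. The 191 expressed 8-digit rows held 10 rises and 16 falls, and the 65 expressed 9-digit rows 0 and 9 (limma, adjusted p under 0.05). Rises made up 4.62% and falls 5.19% of the 28254 rows tested. Before adjustment, 5 of the 65 expressed 9-digit rows were higher with p under 0.05 (limma), against 11.8% of all tested rows. Of the 25 falls, 7 met the level rule through the watered libraries alone. In the 9-digit rows these were LOC112092048, LOC112091457 and a row that went from 46 and 44 to 13 and 9. The rest of the 7 were 8-digit rows, as was the 1 rise that met the rule through the drought libraries alone. This split was made after the identifiers had been seen, and the difference between the series was not tested. The 10 rises are too few to compare the series by.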

How the data were processed

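Leaf RNA of 4 libraries, 2 per treatment, was analysed. Per the submitters' processing notes, bcl2fastq 2.20, HISAT2 and featureCounts were used; settings, genome build, annotation, normalization tool and use of strand are not stated in the sources used here. Per the file headers each deposited score is a normalized value, and the values show that the authors multiplied read counts by 1 factor per library and rounded them. In well-watered library 1 all 18405 values from 1 to 150 fell on multiples of 1.22, which cover 82.0% of whole numbers. In drought library 1 all 18670 fell on multiples of 1.11, which cover 90.0%. In the other 2 libraries the step is below 1 and multiples cover every whole number. There the step rests on whole numbers that 2 multiples round to. These held 1.903 (watered library 2) and 2.035 (drought library 2) times as many rows as whole numbers with 1 multiple. With steps below 1, reads were not recovered and no count model was fitted.

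limma 3.58.1 (R 4.3.3) modelled log2(value + 1) of the 4 libraries by treatment, without covariates and with a level-dependent spread, on the 28254 rows with at least 10 in at least 2 libraries. It had 2 residual and 5.963 prior degrees of freedom. P-values were Benjamini-Hochberg adjusted over all tested rows, with a threshold of 0.05. Fold changes are on the log2(value + 1) scale, which understates changes of low rows. The fit and the step search were tested on simulated data. The rows and rules were chosen with earlier results of these data known. The rule names the 5 most abundant rows and, since no table annotates the identifiers, the 2 largest rises and 2 largest falls by identifier, and gives the rest by values; the fourth most abundant row also rose and is given by rank. Alternatives were other scalings, filters, pseudocounts, spread estimates, identical rows kept once, level rules and leaving out each library.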

Additional observations from a re-analysis of the deposited data

How the results depend on the processing

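The main fit called 10 gene-LOC rows higher and 25 lower, 1304 and 1467 of all rows, and 825 and 1037 expressed predicted mRNAs. With equal library totals the lower gene-LOC rows were 15, all rows 475 and 623, and predicted mRNAs 294 and 390. With no filter on low values the counts were 5 and 16, 709 and 811, and 418 and 540. Without a trend in the spread they were 3 and 11, 265 and 419, and 182 and 267. With identical rows kept once predicted mRNAs higher in drought were 544. Fewer predicted-mRNA rows were left to count there, since 39.0% of the expressed ones share their values with another row. Leaving out 1 library gave 0 to 0 gene-LOC rows in either direction, 0 to 0 higher and 0 to 10 lower of all rows, and 0 to 0 predicted mRNAs, with 3444 to 6211 of all rows at an unadjusted p under 0.05 (limma). With 1 residual degree of freedom, the single library left in a treatment is taken to vary as the other treatment does. Of the 35 gene-LOC calls, 18 were kept with equal library totals, 21 with no filter and 13 with no trend. With identical rows once 34 were kept, and 35 under a stricter filter, either pseudocount and a robust spread. All 35 were also kept under median-ratio and upper quartile factors. Those factors were 0.993 to 1.016, so these scalings left the values almost as they were and could hardly alter a call. Apart from the rows removed as identical, the cause of the changes in the counts was not tested. Expressed rows were 33.0% of the class at a minimum of 10 and 14.7% at a minimum of 50 in 2 libraries. Leaving out 1 library, log2 fold changes ranged from -1.16 to 0.046 for LOC21384241, from -0.52 to 0.15 for LOC21402929 and from -1.02 to 0.25 for LOC21407282, lowest without drought library 1 and above 0 without drought library 2. For LOC112092744 they ranged from -2.21 to -0.31. Values near 20 rest on about 20 reads, which limits the low rows. No paired analysis was possible because no label numbers the samples within a treatment.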
